A study of Mus musculus with 6 samples.

Results

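The ETS transcription factors of endothelium described here are 10 genes, chosen by symbol and all present in the deposited table of 54532 genes: Erg, Fli1, Ets1, Ets2, Etv6, Elk3, Elf1, Elf2, Elf4 and Gabpa. The table assigns 26 genes to the ETS family, so 16 further family members serve for comparison. Total RNA came from mouse endothelial cells 72 h after lentivirus was given, carrying RBPMS (overexpression, n = 3 libraries) or an empty vector (control, n = 3 libraries), so every library comes from virus-exposed cells and none from unexposed ones. RBPMS is an RNA-binding protein that takes part in pre-mRNA splicing, and the comparison asks which transcripts differ when it is overexpressed. The sources used here do not give strain, vascular bed or number of cultures, so the p-values reflect only how far these libraries scatter, which may be technical.

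ETS factors share a winged helix-turn-helix DNA-binding domain that recognises a GGAA core. In endothelium they occupy the promoters and enhancers of most vessel-specific genes. Erg and Fli1 are the family members most tied to endothelial identity, Ets1 and Ets2 respond to growth factor signalling, Etv6 and Elk3 are mainly repressors, and Elf1, Elf2, Elf4 and Gabpa are broadly expressed.

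Total counts were 20453643, 21492957 and 18199702 in RBPMS replicates 1 to 3 and 15779567, 16229564 and 23076124 in control replicates 1 to 3. Control replicate 3 stood apart: across genes, its log2 levels had correlations of 0.949 to 0.956 to the rest, which among themselves reached 0.989 to 0.994. Relative to control replicates 1 and 2 it held less of long transcripts. The median log2 difference was -0.54 for the quintile of longest genes and 0.61 for the quintile of shortest genes. Fold changes are therefore given with all 6 libraries and without this library (5 libraries, 3 RBPMS against 2 control). Rbpms itself had 130.7 to 147.5 CPM (counts scaled to a common library size) in the RBPMS libraries, against 55.2 to 57.1 CPM in the controls. It was 2.41-fold higher without control replicate 3 (edgeR adjusted p = 3.6e-11) and 2.43-fold higher with it (adjusted p = 0.0606). All 8 markers of endothelium, among them Pecam1, Cdh5 and Tek, were present and summed to 15380 to 16280 CPM in RBPMS libraries and 11400 to 18120 in controls, with the lowest sum in control replicate 3. Of 8 fibroblast and mural markers 7 lay under 1 CPM in every library. Of 7 leukocyte markers 5 did, and the list, carried by Cd68, summed to 55.4 to 60.2 CPM in RBPMS libraries against 43.5 to 47.5 CPM in controls. Of 3 mesothelial markers 2 lay under 1 CPM, and the list summed to 16.0 to 20.1 CPM in RBPMS libraries against 20.2 to 24.8 CPM in controls. Of 3 lymphatic markers Prox1 had 1 count in all and Pdpn had 0, and Lyve1 had 379, 364 and 392.2 TMM-scaled CPM in RBPMS replicates 1 to 3, against 479.6, 433 and 360.2 CPM in control replicates 1 to 3. The 4 epithelial and 4 cardiomyocyte markers lay under 1 CPM. The part of these transcripts in the results below was not tested.

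Erg rose with RBPMS in the 5-library comparison, where it was the only 1 of the 10 factors to pass the test. Erg encodes the ETS factor that maintains endothelial identity and junctions. Its level, in CPM scaled by the trimmed mean of M values (TMM), was 259, 258 and 260.2 in RBPMS replicates 1 to 3, against 219.9, 227 and 174 in control replicates 1 to 3. The RBPMS libraries lay close together and above every control, with control replicate 3 the lowest. Without control replicate 3 the log2 fold change was 0.21 ± 0.045 (SE), a rise of 16.0% (95% interval on the log2 scale 0.12 to 0.31, edgeR quasi-likelihood adjusted p = 0.00465). With all 6 libraries it was 0.32 ± 0.13, and the test was not passed (adjusted p = 0.587, unadjusted p = 0.0432). The 5-library call was lost without control replicate 1 as well (log2 fold change 0.19, adjusted p = 0.0802). That fit has a single control library, which is assumed to vary like the RBPMS libraries. Of the 13 alternatives to the 5-library fit 12 kept the call of Erg and 1 lost it, with log2 fold changes from 0.19 to 0.24. In bulk RNA, more cells that transcribe a gene and more RNA of it per cell cannot be told apart.

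Among the factors 1 rose and 0 fell in the 5-library fit, where 7.24% of 14123 tested genes were called, 3.81% higher and 3.43% lower. A count of 1 among 10 does not set the factors apart from that share. Of the tested genes 13.4% had a higher log2 fold change than Erg. Erg was also the 1 factor with an unadjusted p under 0.05 in the 5-library fit, against 20.9% of all genes. With all 6 libraries 0 of 13898 genes passed (0%), and 0 factors. DESeq2 and limma-voom also called 0 factors there, and Erg alone had an unadjusted p under 0.05, against 7.56% of all genes. The median log2 fold change of the 10 factors was 0.00 over 5 libraries, beside 0.00 over all genes tested, and 0.12 over 6 libraries, beside -0.01 over all genes. The log2 fold change was above 0 for 4 of the 10 over 5 libraries, against 49.3% of all genes, and for 8 of the 10 over 6 libraries, against 49%. In the 6-library set RBPMS and control values were separate for Erg and Ets2, both higher, against 24.7% of all genes, with 12.1% of all genes higher. Over 5 libraries they did not overlap for Erg and Ets2, higher, and Fli1, lower, against 37.3% of all genes, with 18.2% of all genes higher and 19.2% lower.

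**Figure D1:**
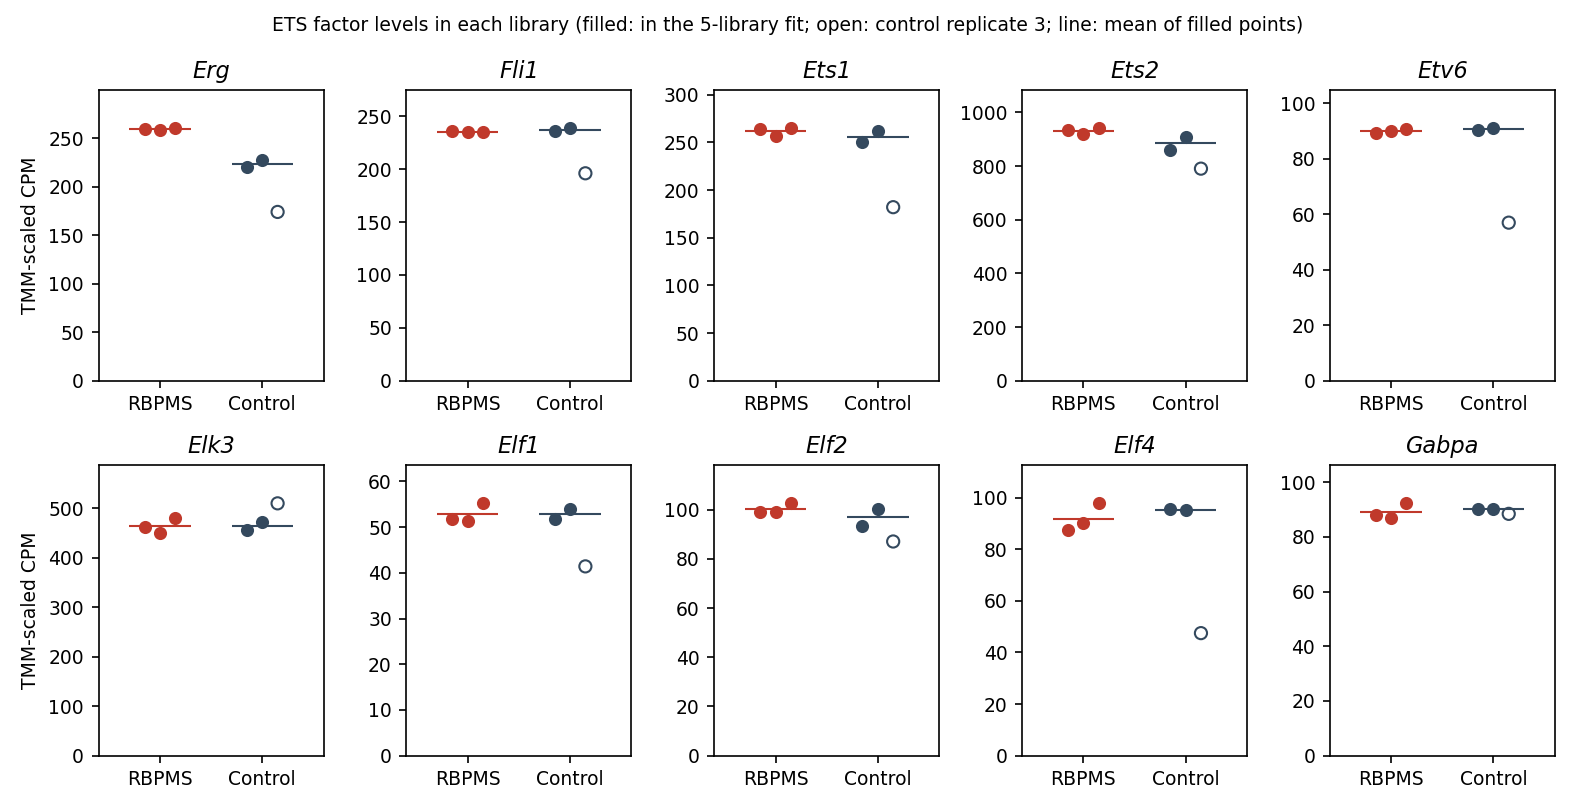
TMM-scaled CPM of the 10 factors in each library, with RBPMS libraries in red and control libraries in dark blue-grey; the open circle is control replicate 3 and lines are means of the filled points. Erg shows 3 RBPMS points near 259 CPM above all controls, while the filled points of Fli1, Ets1, Etv6, Elk3, Elf1, Elf2, Elf4 and Gabpa lie close together between groups and control replicate 3 falls below them for 8 of the 10 genes.

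Fli1, the closest relative of Erg and a partner of it in keeping endothelial genes active, did not pass the test. It had 236, 235 and 235 CPM in RBPMS replicates 1 to 3, against 236, 239 and 196 CPM in control replicates 1 to 3. Control replicate 3 lay below the other libraries, which lay close together. The log2 fold change was -0.01 ± 0.044 over 5 libraries, with a 95% interval of -0.10 to 0.08, and 0.07 ± 0.12 over 6. The direct comparison of Erg with Fli1 is their ratio.

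The ratio of Erg to Fli1 within a library separated the groups with and without control replicate 3. In TPM, counts divided by length and scaled to a common sum per library, from the deposited exonic lengths of 3466 bases for Erg and 3486 for Fli1, it was 1.11, 1.10 and 1.11 in RBPMS replicates 1 to 3, against 0.938, 0.958 and 0.892 in control replicates 1 to 3. By these lengths Erg was the higher of the pair in all 3 RBPMS libraries and the lower in all 3 controls. The lengths cover all annotated exons, not only those of expressed transcripts, so which of the pair is more abundant is uncertain. In the calculation the relative difference between groups does not depend on these lengths, which are the same for every library. Whether the groups use transcripts of different length of either gene was not tested, and counts per gene cannot show it. The mean ratio was 1.11 ± 0.0038 with RBPMS and 0.929 ± 0.034 in controls (SD, n = 3 each), a log2 difference of 0.25. It was 0.22 without control replicate 3 and 0.22 to 0.28 when each library was left out in turn. The ratio was chosen with the values of both genes known. Erg was then known to lie above every control and Fli1 to differ little, so the separation is no further result. It is not particular to Fli1. The ratio of Erg to Ets2 was 0.461 to 0.468 in RBPMS libraries and 0.367 to 0.427 in controls. Taken singly, 24.7% of all genes separated the groups over 6 libraries.

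The pair lie apart in the genome and differ in sequence. How well the counting step separated their reads was not tested. Erg (ENSMUSG00000040732) lies on the minus strand at chr16:95359169-95586593 and Fli1 (ENSMUSG00000016087) on the minus strand at chr9:32422204-32542861 (GRCm38, coordinates of the deposited table). Their longest annotated coding sequences were 74.0% identical over 1331 aligned bases, and the longest stretch without a difference was 22 bases. No sequence of 31 bases occurred in the transcripts of both genes. The 90 coding bases around that stretch lie in the DNA-binding domain and encode its recognition helix. They are shown because they hold the longest identical stretch of these coding sequences. Capitals mark the 10 positions that differ (GENCODE M21 transcripts, coding strand).
Erg: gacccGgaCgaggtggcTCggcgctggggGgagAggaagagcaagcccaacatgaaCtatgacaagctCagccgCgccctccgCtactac
Fli1: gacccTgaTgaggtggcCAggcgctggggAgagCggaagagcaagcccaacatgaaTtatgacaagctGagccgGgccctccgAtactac

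**Figure D2:**
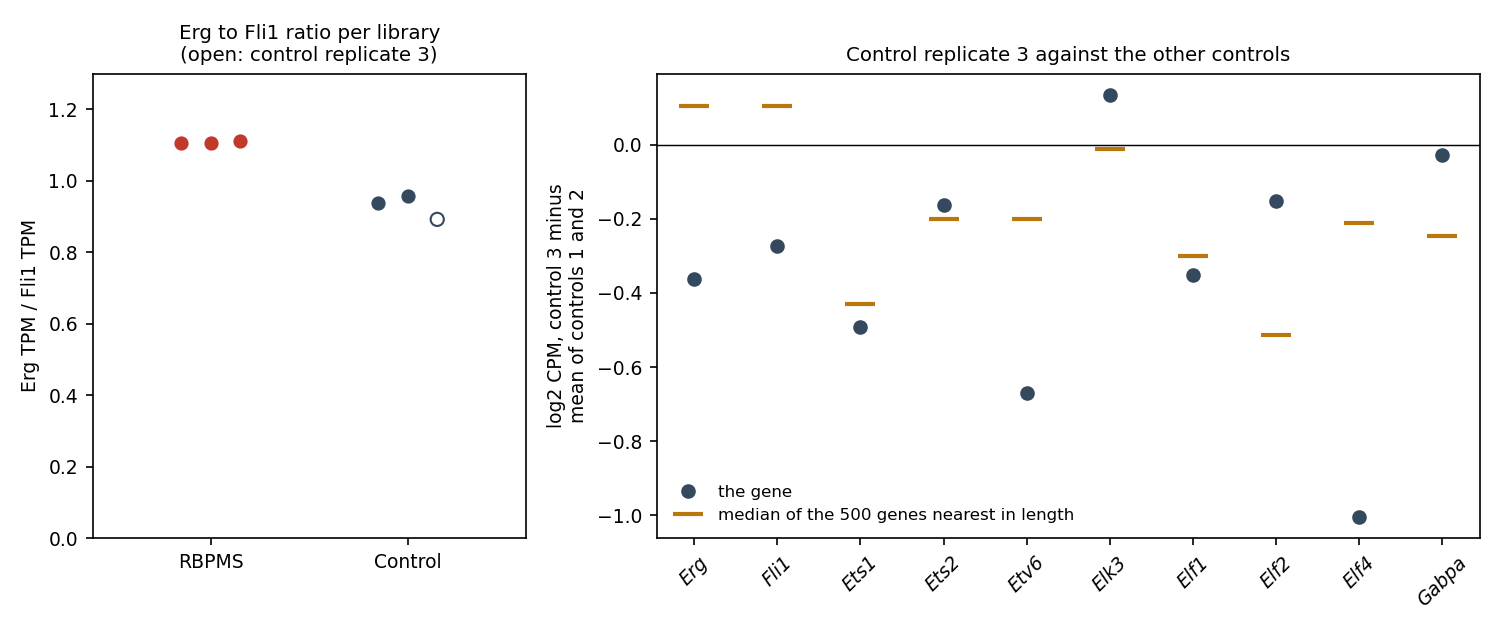
Left, Erg TPM divided by Fli1 TPM in each library, with control replicate 3 open; the RBPMS libraries lie at 1.10 to 1.11 and the controls at 0.892 to 0.958. Right, for each factor, log2 CPM in control replicate 3 minus the mean of control replicates 1 and 2 (points), beside the median of the 500 genes nearest in length (short horizontal lines); Elf4 lies lowest at -1.005 and Elk3 alone lies above 0.

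Ets2, which transmits MAP kinase signals to its target promoters, lay slightly higher with RBPMS but did not pass the test. It had 935, 919 and 940.4 CPM in RBPMS replicates 1 to 3, against 859.9, 909 and 790.2 CPM in control replicates 1 to 3. The groups did not overlap, although RBPMS replicate 2 and control replicate 2 lay close. The log2 fold change was 0.08 ± 0.046 over 5 libraries (adjusted p = 0.382) and 0.13 ± 0.12 over 6 (adjusted p = 0.631). Ets1, an activator of angiogenic and protease genes, had 264, 257 and 265 CPM in RBPMS replicates 1 to 3, against 250.1, 262 and 182 CPM in control replicates 1 to 3. Its groups overlapped, and its log2 fold change was 0.04 ± 0.046 over 5 libraries and 0.18 ± 0.16 over 6.

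Erg and Ets2 are neighbours on chromosome 16, with 115482 bases between them and Ets2 on the opposite strand, and Fli1 and Ets1 are neighbours on chromosome 9 with 93360 bases between them. In each pair the genes point away from each other. Within the chromosome 16 pair the gene that passed the test was Erg, and the interval of Ets2 over 5 libraries ran from -0.02 to 0.17. The protein-coding gene on the other side of Erg, the potassium channel gene Kcnj15, stayed under 0.3 CPM in all 6 libraries.

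The starts of Erg annotated in RefSeq (GRCm38.p6) were searched for the ETS core GGAA on both strands in the 250 bases before each. Of all 32851 promoter windows 93.4% hold it. The outermost start of Erg, which coincides with the start of the gene in the deposited table, has none in its window, and its other 2 starts have 4 and 2. The longer ETS site CCGGAAG occurs in 6.91% of all windows and, among 13 windows of the 8 factors that have an entry, in 1, that of Gabpa. Fli1 and Ets1 have no entry. These matches describe letters in a window only. The window of the outermost Erg start is printed because Erg is the factor called over 5 libraries (chr16:95586594-95586843, minus strand, with no capitals since neither motif occurs).
Erg: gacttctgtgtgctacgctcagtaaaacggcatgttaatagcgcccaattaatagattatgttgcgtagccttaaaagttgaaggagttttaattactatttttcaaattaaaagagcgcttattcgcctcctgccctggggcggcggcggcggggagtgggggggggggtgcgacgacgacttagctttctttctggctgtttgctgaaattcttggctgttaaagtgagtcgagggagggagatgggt

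Among the repressors, neither Etv6 nor Elk3 passed the test. Etv6, which represses through corepressor complexes and acts in vessel sprouting and blood formation, had 89.4, 90.02 and 90.7 CPM in RBPMS replicates 1 to 3, against 90.5, 91.0 and 57 CPM in control replicates 1 to 3. Apart from control replicate 3 the libraries lay close together, with a log2 fold change of -0.01 ± 0.050, against 0.18 ± 0.19 over 6. Elk3, a ternary complex factor that joins serum response factor on promoters and turns from repressor to activator on phosphorylation, had 462, 449 and 479.8 CPM in RBPMS replicates 1 to 3, against 457, 472 and 509.9 CPM in control replicates 1 to 3. It was the only factor whose highest level was in control replicate 3. Its log2 fold change was 0.00 ± 0.047 over 5 libraries and -0.05 ± 0.11 over 6.

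The ELF factors and Gabpa did not pass the test either. Elf4, linked to cell cycle entry and antiviral responses, showed the largest gap within the controls: 87.6, 90.2 and 97.8 CPM in RBPMS replicates 1 to 3, against 95.4, 95.2 and 47.5 CPM in control replicates 1 to 3. Its log2 fold change was -0.05 ± 0.055 over 5 libraries and 0.21 ± 0.26 over 6, so its direction turned with that library. Elf1, an activator of the angiopoietin receptor gene Tek, had 51.3 to 55.2 CPM in RBPMS libraries and 41.4 to 53.9 CPM in controls. Elf2, a relative of Elf1 with activating and repressing isoforms, had 99.0 to 102.6 CPM in RBPMS libraries and 87.1 to 100.3 CPM in controls. Gabpa, the DNA-binding subunit of the GABP complex that drives many mitochondrial and housekeeping genes, had 87 to 92.2 CPM in RBPMS libraries and 88.4 to 90.3 CPM in controls. The log2 fold changes of Elf1, Elf2 and Gabpa were 0.00, 0.05 and -0.02 over 5 libraries and 0.11, 0.10 and -0.01 over 6. For the 9 factors that did not pass, the 95% intervals of the 5-library fit lay between -0.17 and 0.17 on the log2 scale, or -11.0% and 12.7%.

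**Figure D3:**
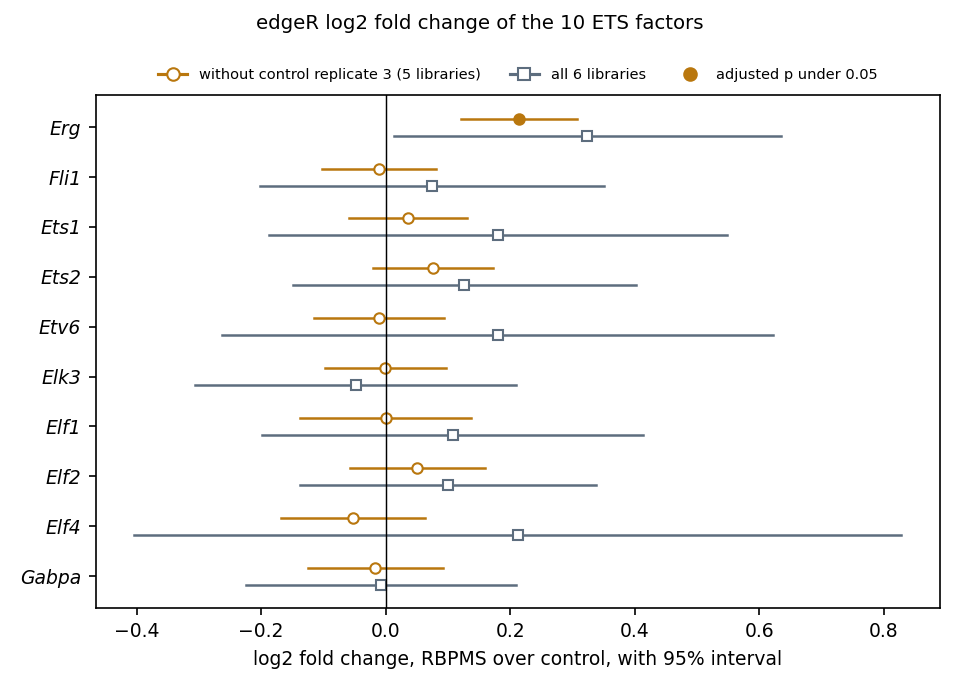
edgeR log2 fold changes of the 10 factors, RBPMS over control, with 95% intervals, without control replicate 3 (circles) and with all 6 libraries (squares); a filled symbol passed an adjusted p of 0.05. Erg at 0.21 is the filled symbol, and the 6-library intervals are wider than the 5-library ones for every factor.

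Control replicate 3 lay below the mean of the other controls for 9 of the 10 factors, with a median log2 difference of -0.31, while 49.8% of all tested genes lay below. For Ets1, Ets2 and Elf1 the difference was close to that of the 500 genes nearest in length (-0.49 against -0.43, -0.16 against -0.20, and -0.35 against -0.30). For Erg, Fli1, Etv6 and Elf4 it was lower than that of genes of like length (-0.36 against 0.10, -0.27 against 0.11, -0.67 against -0.20, and -1.005 against -0.21). For Elf2, Gabpa and Elk3 it was higher (-0.15 against -0.51, -0.03 against -0.25, and 0.14 against -0.01). With a length trend for each library removed, the log2 fold change of Erg over 6 libraries was 0.33 (adjusted p = 0.499).

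Of the 10 factors 5 share annotated exonic bases with a gene on the opposite strand: Gabpa with Atp5j (397 of 5687 bases), Elk3 with Cdk17 (316 of 4550), Elf1 with Wbp4 (327 of 6737), Elf2 with 4930577N17Rik (371 of 9563) and Etv6 with Gm17089 (135 of 5983). The sources used here do not say whether counting used strand, so a part of these counts is uncertain. Erg, Fli1, Ets1, Ets2 and Elf4 share none. Of the 31-base sequences of Elf1 4.81% also occur in transcripts of other genes in the same sense, most of them in the pseudogene Gm6649, and in the other 9 factors the share was at most 0.437%.

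Per length, Ets2 and Elk3 were the most abundant factors in each library. Ets2 averaged 553 ± 16 TPM in RBPMS libraries and 471 ± 100 TPM in controls, and Elk3 350.0 ± 17 TPM in RBPMS libraries and 332 ± 35 TPM in controls (SD, n = 3 each). Erg followed with 257 ± 5.5 TPM in RBPMS libraries and 192 ± 53 TPM in controls, and Fli1 with 232 ± 4.5 TPM in RBPMS libraries and 206 ± 51 TPM in controls. Ets1 came next at 106 ± 3.6 TPM in RBPMS libraries and 88.2 ± 28 TPM in controls. The other 5 averaged from 26.9 (Elf1) to 53.8 TPM (Gabpa) in RBPMS libraries and from 23.4 (Elf1) to 50.1 TPM (Gabpa) in controls. Of the neighbours in this order, Etv6 and Elf4 traded places, with Etv6 the higher in 3 of 6 libraries, as did Erg and Fli1. Elf4 lay above Elf2 in 5 of 6 libraries, with control replicate 3 the exception. The 10 factors together made up 89.8% to 90.7% of the TPM of all 26 family genes in RBPMS libraries and 89.1% to 90.04% in controls. Erg took 13.5% ± 0.12 of the family's TPM in RBPMS libraries and 11.5% ± 0.75 in controls (SD, n = 3 each).

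Of the 16 other family genes 7 passed the filter on low counts. Of these 7, 0 were called over 5 libraries, against 7.24% of all genes, and 0 over 6, against 0%. The lowest log2 fold changes over 5 libraries belonged to Etv4, a PEA3 factor of branching tissues (-0.32 ± 0.14, adjusted p = 0.2), and Erf, a repressor regulated by ERK (-0.15 ± 0.079, adjusted p = 0.292). Etv4 had 6.85, 7.16 and 7.34 CPM in RBPMS replicates 1 to 3, against 10.1, 7.71 and 9.82 CPM in control replicates 1 to 3. The groups of Etv4 did not overlap over 6 libraries, as for 24.7% of all genes. Its log2 fold change was -0.37 ± 0.15 over 6 libraries (edgeR adjusted p = 0.587). Elk4, a ternary complex factor like Elk3, had a log2 fold change of -0.13 ± 0.051 (adjusted p = 0.149) over 5 libraries and -0.08 over 6. Etv1, Etv3, Etv5 and Elk1 had -0.09, 0.01, 0.02 and 0.04 over 5 libraries and -0.23, 0.12, 0.21 and 0.23 over 6, and Erf had -0.04 over 6. Fev, Etv2, Elf3, Elf5, Ehf, Spdef, Spi1, Spib and Spic were not tested, with at most 11 counts in a library. Elf5 and Spic had 0 counts in all 6 libraries, which allows a level of up to 0.026 CPM by counting error. Spi1, the ETS factor of myeloid and B cells, had 1 count in RBPMS replicate 2 and 1 in control replicate 1.

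Target genes of endothelial ETS factors moved in both directions. Of 35 listed genes bound or activated by Erg, Fli1, Ets1 or related factors in endothelium, all were tested. Over 5 libraries 4 rose and 4 fell, 11.4% in each direction, against the background of 3.81% and 3.43%. That background takes in all tested genes, also those of low level, where small changes are harder to call. The list was also chosen with earlier results of these data known. Whether the higher shares go with ETS targets, with level or with the choice of the list was not tested. The median log2 fold change of the 35 was -0.04, beside 0.00 over all genes. Over 6 libraries 0 of the 35 were called, with 1 at an unadjusted p under 0.05. The genes that rose were Mmrn2, a vascular matrix glycoprotein (log2 fold change 0.44 ± 0.060, edgeR adjusted p = 8.02e-05), Flt4, the receptor of lymphangiogenic growth factors (0.31), Arhgef15, a guanine nucleotide exchange factor of endothelium (0.19), and Emcn, the sialomucin endomucin (0.17). Those that fell were Vwf, the haemostatic von Willebrand factor (-0.45 ± 0.053, adjusted p = 1.73e-05), Flt1 (-0.22) and Kdr (-0.21), receptors of vascular endothelial growth factor, and Apln, the tip cell peptide apelin (-0.21). Control replicate 3 moved several of these log2 fold changes. Over 6 libraries Mmrn2 had 0.61, Flt4 0.62, Arhgef15 0.27 and Emcn -0.07, while Vwf had -0.18, Flt1 0.02, Kdr -0.01 and Apln -0.16. Flt1 and Emcn thus had the opposite sign with that library, and none of the 8 passed the test there (adjusted p of 0.587 to 0.977).

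Arhgef15 had 218, 221 and 208 CPM in RBPMS replicates 1 to 3, against 185, 194 and 157 CPM in control replicates 1 to 3. For Arhgef15 all RBPMS libraries thus lay above all controls, as for 12.1% of all genes over 6 libraries. Its adjusted p was 0.0182 over 5 libraries and 0.587 over 6. Apln had 265, 263 and 282 CPM in RBPMS replicates 1 to 3, against 334, 289.8 and 279 CPM in control replicates 1 to 3, with an overlap only through control replicate 3. Emcn had 351, 358 and 385 CPM in RBPMS replicates 1 to 3, against 334, 317 and 501 CPM in control replicates 1 to 3, the highest of the 6. With 1 more library left out of the 5, Emcn lost its call in each of the 5 cases (adjusted p of 0.0599 to 0.290), Arhgef15 and Apln without control replicate 1 (0.212 and 0.417), RBPMS replicate 1 (0.0796 and 0.108) or RBPMS replicate 2 (0.0666 and 0.0651), and Kdr without control replicate 2 (0.0617) or RBPMS replicate 2 (0.0798). In these left-out fits the log2 fold change ran from 0.13 to 0.20 for Emcn, 0.15 to 0.22 for Arhgef15, -0.31 to -0.10 for Apln and -0.23 to -0.18 for Kdr, all in the same direction, and fits that leave out a control hold a single control library. The transcription factor genes on the list, Tal1, Gata2, Sox17 and Hhex, named here after their values were seen, had -0.18, 0.02, -0.04 and -0.09 over 5 libraries and -0.02, 0.03, -0.16 and -0.20 over 6, and none was called.

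**Figure D4:**
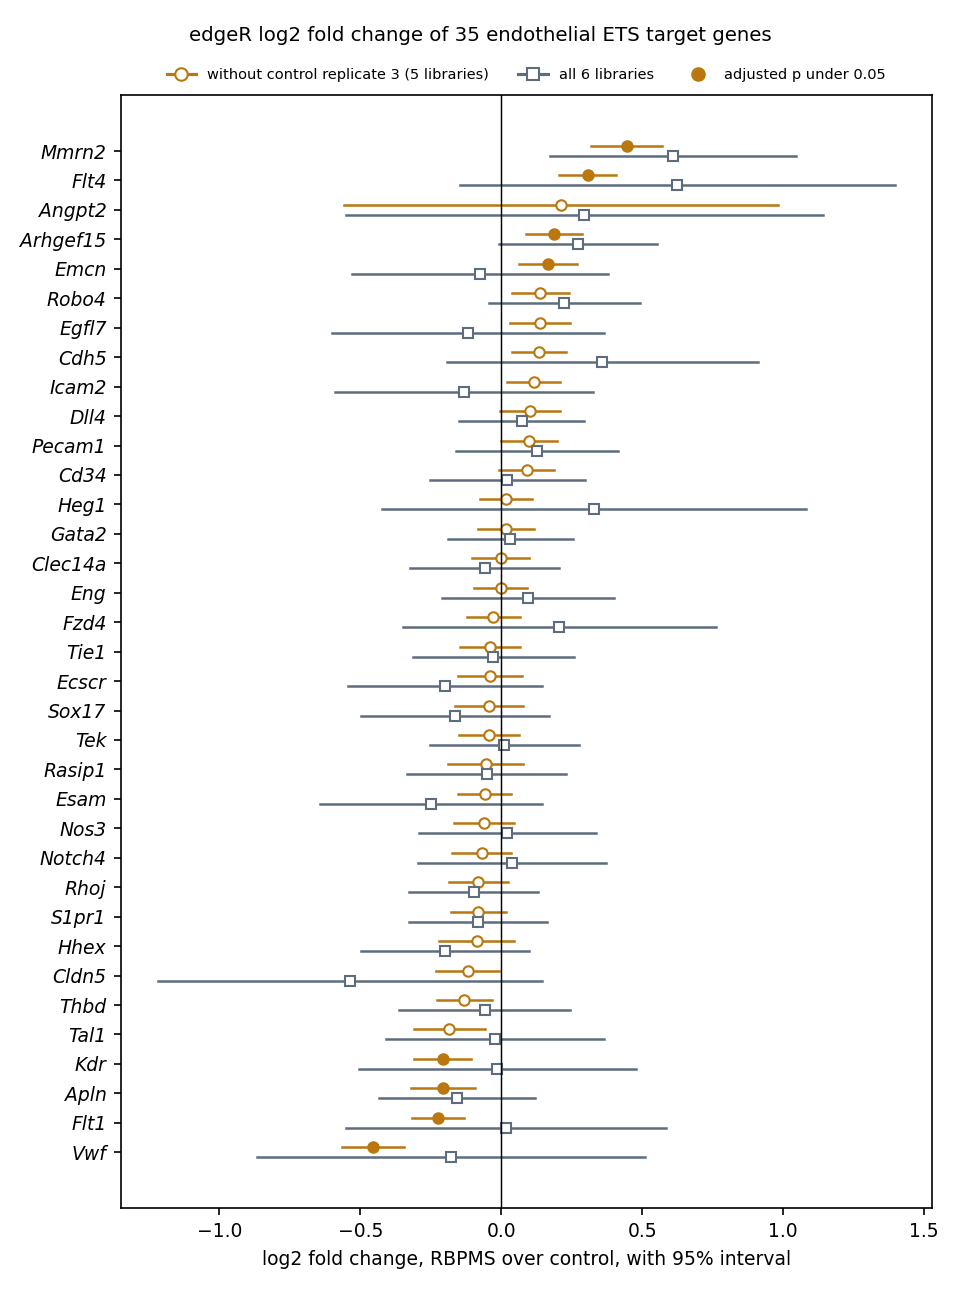
edgeR log2 fold changes of 35 endothelial ETS target genes, RBPMS over control, with 95% intervals, ordered by the fit without control replicate 3 (circles); squares show all 6 libraries and filled symbols passed an adjusted p of 0.05. Mmrn2 at 0.44 and Vwf at -0.45 mark the ends of the called genes, and with all 6 libraries Flt1, Kdr, Emcn and Vwf lie nearer to 0.

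Vcam1 and Icam1, leukocyte adhesion molecules that Erg is known to hold down in human endothelial cells, were not called. Vcam1 had a log2 fold change of 0.04 over 5 libraries and 0.01 over 6. Icam1 had 20, 26 and 9 counts in RBPMS replicates 1 to 3, against 6, 5 and 6 counts in control replicates 1 to 3. The groups did not overlap, as for 37.3% of all tested genes over 5 libraries. Icam1 passed the filter on low counts only over 5 libraries, where the log2 fold change was 1.39 ± 0.52 (95% interval 0.30 to 2.47, edgeR adjusted p = 0.116, unadjusted p = 0.0146). The 19 partner genes encode GABP beta subunits, serum response factor, coactivators, corepressors, MAP kinases and ubiquitin enzymes that act on ETS factors. Of these 0 were called in either comparison, against 7.24% of all genes over 5 libraries and 0% over 6. A count of 0 among 19 does not set them apart from that share. Their median log2 fold change was -0.02 over 5 libraries, beside -0.003 over all genes, and 0.07 over 6, beside -0.008. The most abundant partner genes, the ERK1 kinase gene Mapk3 and the ubiquitin ligase adaptor gene Spop, had log2 fold changes of 0.04 and -0.04 over 5 libraries and -0.16 and -0.18 over 6. Cop1, a ubiquitin ligase gene named here after its value was seen, was called (-0.25, adjusted p = 0.0492) in a fit that lacked control replicates 2 and 3 and so compared 3 RBPMS libraries with a single control, assumed to vary like them. Over 5 libraries its log2 fold change was -0.09 (adjusted p = 0.521) and over 6 it was -0.18 (adjusted p = 0.599).

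Across the 6 libraries the level of Erg followed Ets2 most closely among the factors (Pearson r = 0.972 of log2 CPM) and ran against Elk3 (r = -0.743). The genes outside the lists most like Erg, among 6034 whose log2 CPM averaged 5 or more, were Tbc1d2b (r = 0.999), Trp53inp2 (0.998) and Pld1 (0.997). These values describe 6 libraries that share the low position of control replicate 3, and 19.1% of the 6034 genes had an r above 0.9.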

How the data were processed

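Per the labels' protocols, total RNA was extracted with Trizol and sequenced after ribosomal RNA removal; the submitters' processing notes name FastQC, Salmon and mm10. The values are the authors' deposited counts, whole numbers for each gene; the sources used here do not give versions, strand use or the step from reads to counts. The authors' length column matched the exonic length in GENCODE M21 for all 10 factors. Counts were tested as deposited with edgeR 4.0.16 in R 4.3.3 (filterByExpr, TMM, quasi-likelihood, Benjamini-Hochberg adjusted p under 0.05 over all tested genes). SE is the log2 fold change over the root of F. CPM are TMM-scaled, except the marker sums. Members, lists and the use of both library sets were chosen with earlier results of these data known. Named genes were all members, all other family genes, called target and partner genes (up to 6 per direction, or the 2 most abundant where none was called), genes that overlap or adjoin a member, and the 3 genes most like Erg. Alternatives were DESeq2 1.42.0, limma-voom (limma 3.58.1), other scalings and filters, a length trend (loess span 0.3), a replicate block and left-out libraries. Chi-square per degree of freedom between replicates was at least 3.19, so libraries differed beyond counting error. The fits were also tried on simulated counts. These held no outlying library and no length trend, so the trial does not cover the departure of control replicate 3. Depth limits counting error for the 10 factors to at most 3.49% of a library's value, before replicate spread. A listed gene is not reported here.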

Additional observations from a re-analysis of the deposited data

How the results depend on the processing

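Erg kept its direction under all 14 alternatives to the 6-library comparison (log2 fold change 0.21 to 0.40) and all 13 to the 5-library one (0.19 to 0.24). In the 6-library comparison 0 to 1 factors and 0 to 8 target genes were called when each library was left out, the higher values without control replicate 3; the cause was not tested. In the 5-library comparison these ranges were 0 to 1 factors, 4 to 8 target genes and 0 to 1 partner genes, and the other settings called 6 (replicate block) to 11 (no filter) target genes. Emcn lost its call in 8 of the 13 settings, among them total library size (0.16, adjusted p = 0.0564) and a length trend (0.16, 0.0541). Of all genes, DESeq2 called 56 over 6 libraries, no filter on low counts 5 and a length trend 3, against 0. Over 5 libraries edgeR called 1022 genes and DESeq2 776, and edgeR called 415 without control replicate 1, 627 without control replicate 2 and 616 without RBPMS replicate 1 as well.

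Signs turned only for values that were not called in the comparison concerned. Over 6 libraries Kdr was 0.0123 with limma-voom and 0.0192 with a replicate block, and a length trend gave Elf2 -0.0977, Etv3 -0.0742 and Flt1 -0.2014. Leaving out 1 library there gave ranges of -0.21 to 0.11 for Kdr, -0.15 to 0.0608 for Erf, -0.0102 to 0.12 for Fli1, -0.0104 to 0.29 for Etv6, 0 to 0.18 for Elf1, -0.0525 to 0.37 for Elf4, -0.22 to 0.16 for Flt1, -0.20 to 0.17 for Emcn and -0.0344 to 0.0096 for Gabpa. Over 5 libraries Elk3 and Elf1 were 0.0006 and 0.0012 with DESeq2 size factors, 0.0029 and 0.0034 without a filter, and 0.0005 and 0.0012 with DESeq2, Elf1 was 0.0006 with a filter at 1 CPM, and Etv3 was -0.0105 with a length trend. Leaving out 1 more library gave -0.0014 to 0.10 for Elf2, -0.0393 to 0.0584 for Etv3, -0.0262 to 0.0233 for Elk3, -0.033 to 0.0316 for Elf1, -0.39 to 0.21 for Etv1, -0.0348 to 0.0718 for Etv5, -0.0023 to 0.0821 for Elk1 and -0.0385 to 0.001 for Gabpa.

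Replicate numbers are shared by the groups, and deviations of same-numbered libraries from their group means correlated at 0.051, -0.024 and 0.015. Control replicate 3 dominates the deviations among controls. Chi-square per degree of freedom was 137 and 130 between it and control replicates 1 and 2, against 3.49 between those 2. The check therefore cannot show whether the numbers mark pairs. With the number as a replicate block 0 genes were called over 6 libraries and 917 over 5, Erg kept its call over 5 (0.21, adjusted p = 0.0117), Etv5 was -0.0317, Kdr and Emcn lost theirs (-0.21 and 0.12, adjusted p of 0.0816 and 0.122), and 6 of 35 target genes were called. Without control replicate 3 no control shares the number of RBPMS replicate 3. The group difference in the 5-library block fit thus rests on replicates 1 and 2 of each group.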
